A study of Mus musculus with 24 samples.

Results

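The cadherins and protocadherins are cell-surface adhesion proteins, and 82 of their genes were followed here in the mouse pituitary. Genes were taken by name from the 35191 genes of the count table: protein-coding genes named Cdh plus a number, genes starting with Pcdh, the genes Fat1 to Fat4, and Dchs1 and Dchs2. The rule matched 97 genes, of which 94 had enough counts to be tested and 82 averaged at least 1 CPM (counts per 1000000 counts of the library) over the 24 libraries. They comprised 3 of 5 classical type I cadherins, 12 of 13 type II cadherins, 2 of 4 truncated or otherwise atypical cadherins, 1 of 2 tip-link cadherins, 4 of 6 Fat and Dachsous cadherins, 9 of 9 delta protocadherins and 2 of 2 other non-clustered protocadherins. Of the clustered protocadherins, 7 of 14 alpha genes, 22 of 22 beta genes and 20 of 20 gamma genes were included. Pcdha1, at a mean of 1.02 CPM, and Cdh20, at 1.08 CPM, lay just inside the minimum, and Cdh15 at 0.956 CPM, Pcdhac1 at 0.948 CPM and Pcdha5 at 0.868 CPM lay just outside it.

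Cadherins bind like molecules on neighbouring cells through calcium-dependent extracellular repeats, and the classical types hold the cell cortex through catenins. Fat and Dachsous proteins bind each other and feed planar polarity and the Hippo growth pathway, whereas protocadherins combine into surface codes best known from neurons. Clustered protocadherin genes lie in tandem arrays and are switched on promoter by promoter, and in the pituitary E-cadherin is known from stem cells and N-cadherin from hormone cells.

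The samples were pituitaries of male and female mice, and RNA-seq counts were available for 24 libraries, 3 in each of 8 groups. Each sex had an Egr1cKO group (conditional knockout of the zinc-finger transcription factor gene Egr1, labelled FF with the plus sign), an Egr1cKO control group (FF with the minus sign), a Cre control group (wild type Egr1 with the plus sign) and a complete wild type group (with the minus sign). The plus sign was read as carriage of Cre, from the name of the Cre control group. The sources used here do not give the age of the mice, the promoter driving Cre or the part of Egr1 removed, and nothing states beyond the numbers in the sample titles that replicates are separate animals, so p-values measure the spread between these samples, which may be technical. The title numbers of both FF groups run in a different series from those of the Cre control and wild type groups, so the FF genotype and that series cannot be told apart.

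Total counts ran from 15486069 to 26255343 per library, and the expression-based sex matched the label in 24 of 24. Egr1 was not lower in the Egr1cKO libraries: it ranged from 7.55 to 162 CPM in female Egr1cKO and from 9.78 to 34.2 CPM in its control, and from 58.2 to 238 CPM in male Egr1cKO and from 22.6 to 51.1 CPM in its control. Counts over a whole gene do not show the loss of 1 part of it, so this checks the labels poorly. The mitochondrially encoded share of counts, an index of RNA composition, was 8.73% to 10.4% in female Egr1cKO, 3.5% to 6.87% in female Egr1cKO control, 5.52% to 6.69% in female Cre control, and 2.08% to 4.8% over the male libraries. Female wild type was split, with 10.1% in replicate 1 against 2.14% and 2.7% in replicates 2 and 3. Of the 82 genes, 62 (75.6%) were higher in both replicates 2 and 3 than in replicate 1, against 49.9% of the 21927 genes tested, so the main counts, medians and called genes that rest on female wild type are also given without replicates 2 and 3. Such fits leave replicate 1 as the only female wild type library, so they show dependence on the split and not which side of it is right.

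N-cadherin and the large Fat cadherin Fat1 were the leading members. Summed over the 82 genes the mean level was 835 CPM, of which the 10 highest genes made up 50.6%, Fat1 alone 14.8% and the clustered protocadherins together 28.0%. By read count the highest means were those of Fat1 at 124 CPM, Cdh2 (N-cadherin, the main adhesion molecule of endocrine pituitary cells) at 72.2 CPM, Pcdh1 at 59.5 CPM, Pcdh17 at 30.8 CPM and Fat3 at 30.5 CPM. Per kilobase of exon the order became Cdh2 at 8.95 CPM per kb, Fat1 at 7.91 CPM per kb, Cdh26 at 7.83 CPM per kb, Pcdh1 at 6.76 CPM per kb and Cdh5 (VE-cadherin, the adhesion molecule of vessel endothelium) at 4.17 CPM per kb. The median gene averaged 5.18 CPM and 22 genes reached 10 CPM, among them Pcdh15, a tip-link cadherin of hair cells, at 10.8 CPM.

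Among the clustered genes the beta genes were the highest, led by Pcdhb17 at 4.11 CPM per kb and Pcdhb9 at 3.44 CPM per kb. The alpha genes averaged between 1.02 and 4.02 CPM. Alpha and gamma genes share their last exons: the shared part was 48.6% to 63.6% of the exon length of the alpha genes and 31.5% to 73.6% of the gamma genes. Reads in a shared exon do not tell these genes apart, and how they were counted is not stated. Counts of single alpha and gamma genes are therefore uncertain, whereas most beta genes shared no exon with another gene.

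**Figure D1:**
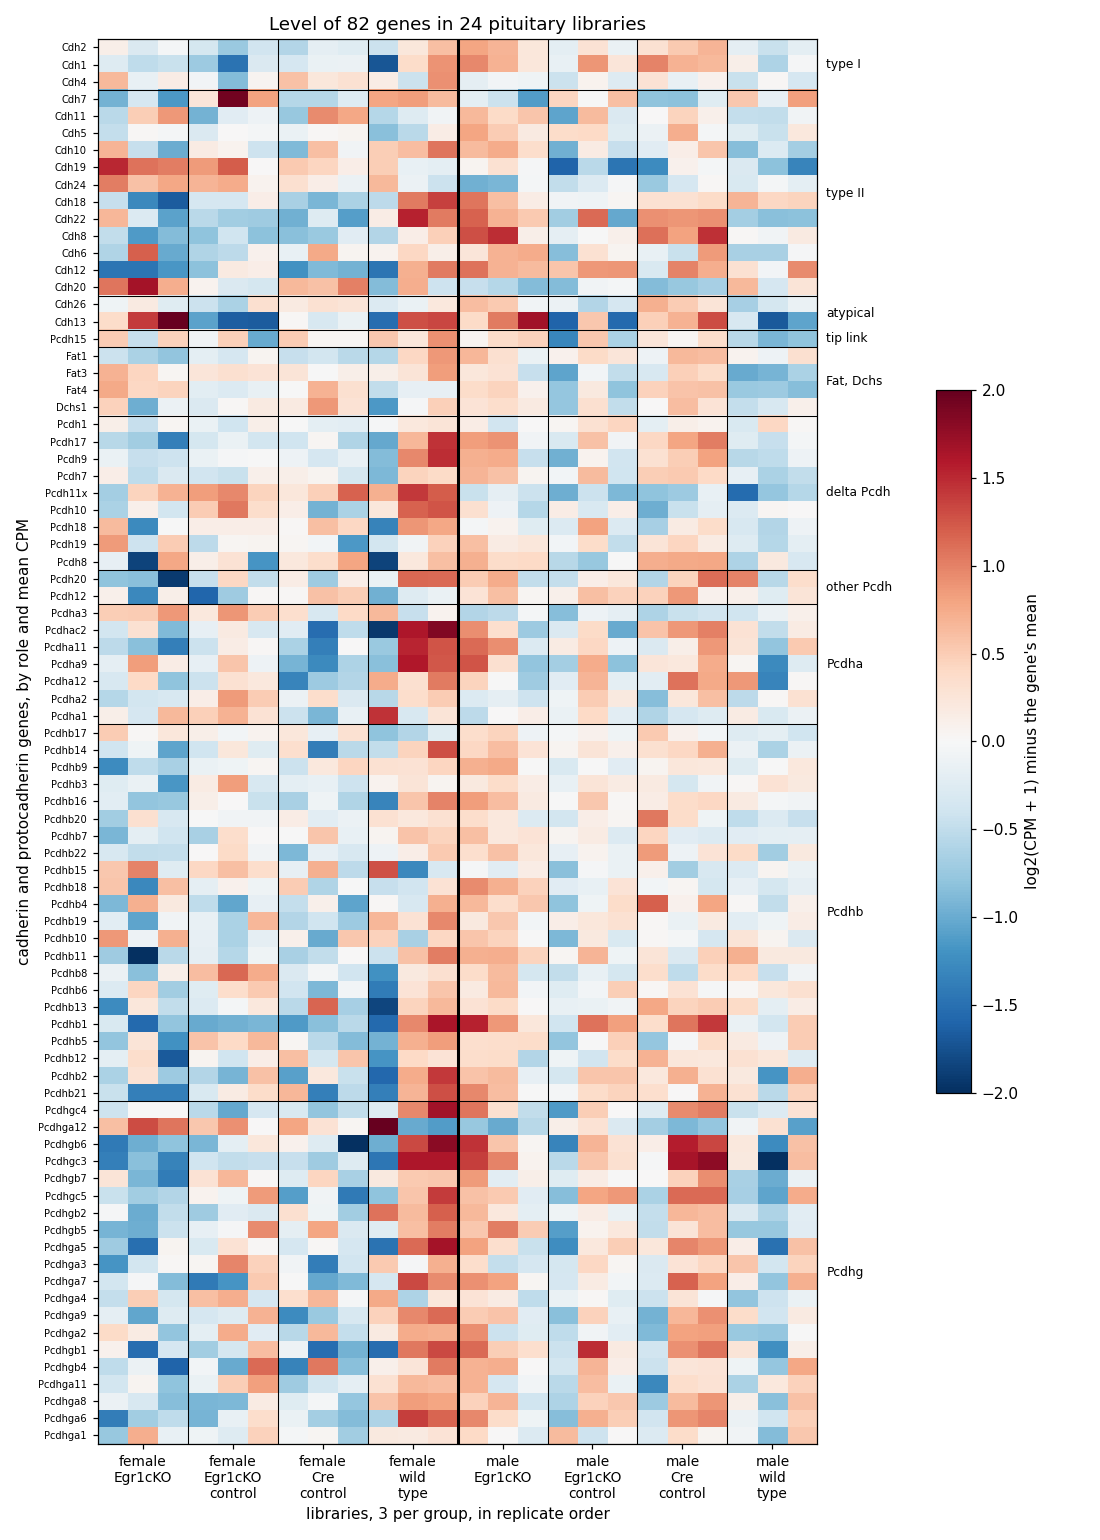
Level of each of the 82 genes (down the page, by class and mean level) in the 24 libraries (across, 3 per group), as log2(CPM + 1) minus the gene's mean over all libraries. Replicates 2 and 3 of female wild type are red over most rows and replicate 1 is mostly blue; 62 of 82 genes were higher in both of them than in replicate 1.

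The summed level of the family was highest in Cre-carrying libraries among males and in 2 of the 3 wild type libraries among females. The sum was 753, 691 and 691 CPM in female Egr1cKO and 688, 796 and 787 CPM in its control. It was 681, 741 and 683 CPM in female Cre control, against 672, 1060 and 1350 CPM in female wild type. Among males the sum was 1160, 1040 and 787 CPM for Egr1cKO and 633, 954 and 767 CPM for its control, and it was 829, 1060 and 1110 CPM in Cre control against 693, 612 and 783 CPM in wild type. Of these pairs within a sex, only male Cre control and male wild type had sums that did not overlap. Between the sexes the sums did not overlap in Egr1cKO or in Cre control, where every male sum was higher, and they overlapped in the other genotypes. Female wild type was the highest group for 31 genes and female Egr1cKO the lowest for 27, and the highest group exceeded the lowest by a median of 2.83-fold over the 82 genes. With replicate 1 alone standing for it, female wild type was the highest group for 12 genes and the lowest for 32, and the median was 3.43-fold. No such counts over all genes stand beside these, so they describe the list only.

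**Figure D2:**
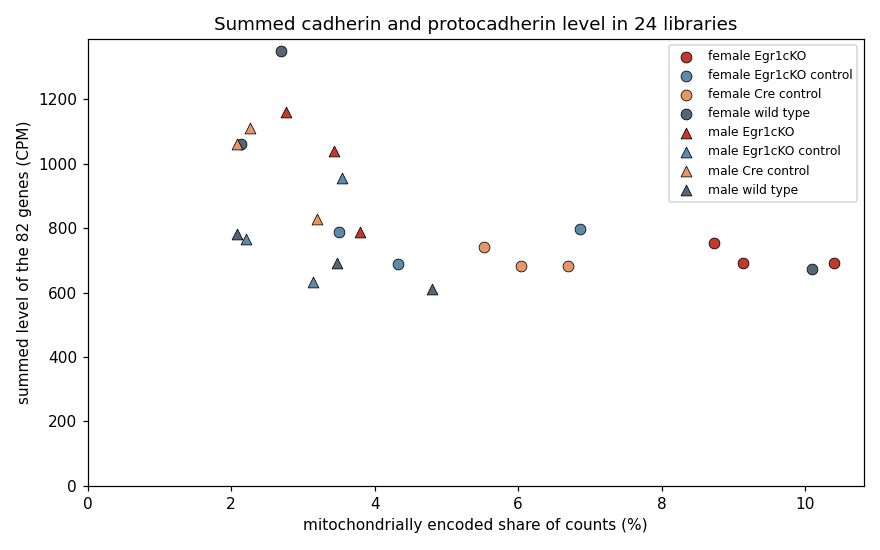
Summed CPM of the 82 genes (vertical axis) against the mitochondrially encoded share of counts in percent (horizontal axis) in each of the 24 libraries; circles are females, triangles males and colours genotypes. The 3 female Egr1cKO libraries and female wild type replicate 1, at the right with the highest shares, had sums between 672 and 753 CPM, and the highest sum, 1350 CPM, was in female wild type replicate 3 at 2.7%.

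Fold changes below come from edgeR's quasi-likelihood test over all 8 groups, and a gene is called changed when its Benjamini-Hochberg adjusted p over the 21927 genes is under 0.05. In males, most of the family lay above 0 in both comparisons that differ by Cre. For Egr1cKO over its control, 67 of 82 genes (81.7%) were above 0, against 52.6% of all genes, with a median log2 fold change of 0.41 against 0.03. For Cre control over wild type, 64 genes (78.0%) were above 0, against 51.0% of all genes, with medians of 0.53 and 0.01. All 22 beta protocadherins were above 0 in the first of these, with a median of 0.41. In Cre control over wild type, Pcdhb3, Pcdhb5, Pcdhb6, Pcdhb10, Pcdhb11 and Pcdhb15 were below 0, between -0.4 and -0.12, and the other beta genes were above 0. In females the directions were the other way: 51 of 82 genes (62.2%) were below 0 for Egr1cKO over its control (53.4% of all genes), and 64 (78.0%) for Cre control over wild type (52.4% of all genes). The female Cre median was -0.71, but 0.10 once female wild type replicates 2 and 3 were left out. The group is then replicate 1 alone, so the direction depended on which of the split libraries stood for female wild type. The shares and medians describe the list and were not tested.

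Few single genes passed edgeR's test within one sex, and for the Cre effect the number depended on the tool and the filter. For Egr1cKO over control in males, 0 genes were called by edgeR, beside 0.041% of all genes, and 0 by DESeq2. At an unadjusted p under 0.05 by edgeR there were 11 genes, beside 6.57% of all genes. The smallest adjusted p by edgeR was 0.31, for Cdh19 (log2 fold change 1.44, SE 0.415), followed by Cdh26 at 0.75 and Fat4 at 0.72. In females 2 of 82 genes were called (2.44%, beside 2.21% of all genes): Cdh13 at 3.18 (SE 0.756, adjusted p = 0.0337 by edgeR) and Cdh7 at -2.02 (SE 0.356, adjusted p = 0.00286 by edgeR). Cdh12 stood at -4.22 with an adjusted p that rounds to 0.05 by edgeR and was not called. For Cre control over wild type, 1 gene was called in males, Fat4 at 1.41 (1.22%, beside 0.233% of all genes), and 2 in females, Cdh18 at -1.81 and Pcdh10 at -1.56 (2.44%, beside 1.21% of all genes). The nearest genes that did not pass were Fat3 at 1.11 (adjusted p = 0.0688 by edgeR) and Cdh26 at 0.91 (0.145) in males and Pcdhb19 at -1.49 (0.061) in females. For the Cre effect DESeq2 called 5 genes in males (6.1%, beside 1.44% of all genes) and 10 in females (12.2%, beside 4.43%), and edgeR without the filter on low counts called 10 in males (12.2%, beside 2.0%) and 20 in females (24.4%, beside 3.27%). The female count was 6 without female wild type replicates 2 and 3 (7.32%, beside 4.56%). For Egr1cKO in females the mitochondrial covariate gave 9 (11%, beside 14.1%).

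**Figure D3:**
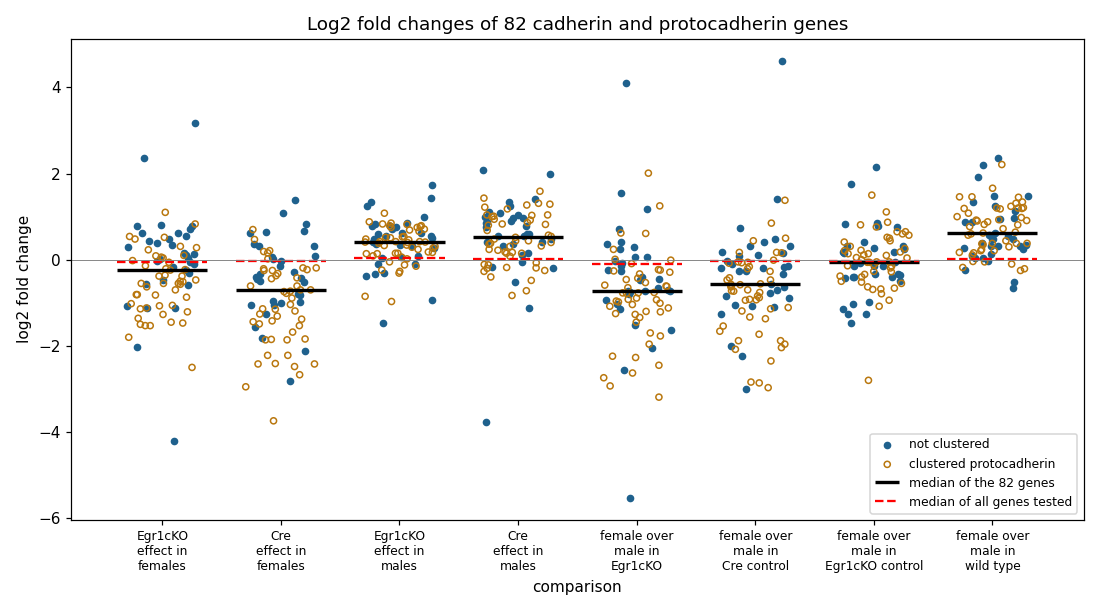
Log2 fold change of each of the 82 genes (vertical axis) in the comparisons named below; filled points are non-clustered genes, open points clustered protocadherins, black bars the median of the 82 genes and dashed red bars the median of all genes tested. The medians of the 82 genes were -0.24 and -0.71 for the Egr1cKO and Cre comparisons in females, and 0.41 and 0.53 in males.

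Averaging the 4 comparisons of Cre-carrying with Cre-negative groups gave 9 called genes, 6 higher and 3 lower with Cre. That is 11% of the 82, beside 6.89% of all genes called (2.8% as higher and 4.08% as lower), and the median of the 82 was -0.06 against -0.03 for all genes. The count was 16 with the mitochondrial share as covariate (19.5%, beside 19.3% of all genes) and 19 without female wild type replicates 2 and 3 (23.2%, beside 16.8%), so its distance from the background also moved. Type II cadherins supplied 4 of the 9, both atypical cadherins 2, and the Fat, delta and beta classes 1 each, whereas the alpha and gamma classes supplied none. Cdh13, Fat4, Cdh26, Pcdhb17, Cdh7 and Pcdh10 were called in all 24 fits that left out 1 library, and in the 6 other alternatives run: another normalisation, no filter on low counts, DESeq2, the mitochondrial share or the number of genes detected as covariate, and no female wild type replicates 2 and 3. Cdh11, Cdh19 and Cdh12 were not.

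The promoters of the 4 of these 6 genes for which the RefSeq table holds a window are shown, as members called for the average Cre effect in every fit run. That average includes the Cre control groups, which have wild type Egr1, so the choice of these genes does not bear on Egr1. Each window is 300 bases around an annotated start on the gene's own strand, in GRCm38.p6: chr1:109983052-109983351 on the plus strand for Cdh7, chr3:45378148-45378447 on the plus strand for Pcdh10, chr3:38886690-38886989 on the plus strand for Fat4 and chr2:178430265-178430564 on the plus strand for Cdh26. Capitals mark matches to GCGNGGGCG, the core motif that EGR factors bind, searched on both strands, and no other motif was searched.
Cdh7: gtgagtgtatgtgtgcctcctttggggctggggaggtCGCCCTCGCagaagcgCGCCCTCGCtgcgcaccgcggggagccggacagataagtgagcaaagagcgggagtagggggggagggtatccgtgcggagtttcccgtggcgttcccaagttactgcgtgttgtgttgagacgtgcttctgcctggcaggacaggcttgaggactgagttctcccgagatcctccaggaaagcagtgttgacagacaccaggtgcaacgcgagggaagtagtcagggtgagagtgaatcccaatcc
Pcdh10: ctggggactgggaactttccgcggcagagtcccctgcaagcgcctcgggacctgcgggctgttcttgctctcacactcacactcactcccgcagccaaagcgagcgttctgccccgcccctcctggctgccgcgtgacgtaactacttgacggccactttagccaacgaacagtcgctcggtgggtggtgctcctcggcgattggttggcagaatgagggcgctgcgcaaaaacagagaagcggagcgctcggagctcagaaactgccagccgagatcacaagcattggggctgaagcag
Fat4: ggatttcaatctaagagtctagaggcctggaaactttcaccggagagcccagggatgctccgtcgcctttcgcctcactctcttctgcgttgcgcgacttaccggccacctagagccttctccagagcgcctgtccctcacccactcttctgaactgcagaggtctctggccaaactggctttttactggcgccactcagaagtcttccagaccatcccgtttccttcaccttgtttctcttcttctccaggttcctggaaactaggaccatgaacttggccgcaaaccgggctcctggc
Cdh26: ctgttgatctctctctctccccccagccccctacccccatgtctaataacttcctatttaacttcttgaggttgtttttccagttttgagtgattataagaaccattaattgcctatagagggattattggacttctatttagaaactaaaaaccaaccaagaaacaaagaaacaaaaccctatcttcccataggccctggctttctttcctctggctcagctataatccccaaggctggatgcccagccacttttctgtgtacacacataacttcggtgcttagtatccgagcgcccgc
The window of Cdh7 held 2 matches, both on the opposite strand, and Cdh7 has 3 RefSeq starts of which 1 had the motif. The other windows shown had 0 matches, which says only that these letters are not in them. Over all 32851 RefSeq promoter windows of this length, 1824 (5.55%) held the motif. Among the family, 22 genes had a window, and 3 of their 25 windows (12%) held it, with a median GC content of 60.3% against 52.7% over all windows. A match is a string of letters and not a measured binding site.

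Cdh7, a type II cadherin known from the neural crest of chick embryos, had the lowest adjusted p of the 82 genes in this average. It measured 10.3, 16.2 and 8.83 CPM in female Egr1cKO, against 24.9, 82.2 and 36.9 CPM in its control. Female Cre control libraries had 13.6, 13.7 and 17.3 CPM, against 36.8, 37.9 and 32.8 CPM in female wild type. In males, Egr1cKO had 18.1, 15.1 and 9.05 CPM and Cre control 11.5, 11.3 and 17.4 CPM, against 28.2, 20.6 and 32.0 CPM in Egr1cKO control and 30.7, 18.4 and 37.5 CPM in wild type. All 12 Cre-carrying libraries lay between 8.83 and 18.1 CPM, below all 12 Cre-negative ones, which lay between 18.4 and 82.2 CPM. The average log2 fold change was -1.33 (SE 0.174, adjusted p = 1.82e-05 by edgeR), and the 4 comparisons behind it ran from -2.02 to -0.94. The call for Egr1cKO females held in all 6 fits that left out 1 of its libraries, with a highest adjusted p of 0.0392 by edgeR.

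Pcdh10, a delta protocadherin that binds the actin-regulating WAVE complex, also fell with Cre on average. It measured 3.8, 6.99 and 4.81 CPM in female Egr1cKO against 9.62, 14.6 and 8.59 CPM in its control. Female Cre control libraries had 7.18, 2.88 and 3.82 CPM, against 7.72, 16 and 16.9 CPM in female wild type. Neither female pair overlapped. In males Egr1cKO had 8.34, 5.97 and 4.03 CPM against 7.25, 5.04 and 7.16 CPM in its control, and Cre control had 2.8, 4.52 and 5.58 CPM against 5.18, 6.69 and 6.5 CPM in wild type, and both male pairs overlapped. The average was -0.81 (SE 0.194, adjusted p = 0.01 by edgeR), with the 4 comparisons between -1.56 and -0.09. The separate call in Cre control females (SE 0.394, adjusted p = 0.0467 by edgeR) held in 2 of 6 fits, those without replicate 1 of female Cre control or of female wild type, and was lost without any of the other 4 libraries; without female wild type replicates 2 and 3 it was -0.76 and not called.

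Cdh18, a type II cadherin of brain, was lower in Cre control females. It measured 3.79, 2.97 and 3.82 CPM in female Cre control against 4.22, 14.4 and 18.4 CPM in female wild type, and the groups did not overlap. The value was -1.81 (SE 0.424, adjusted p = 0.0335 by edgeR). The call held in 1 of 6 fits, the one without female wild type replicate 1, was lost without any of the other 5 libraries at adjusted p between 0.107 and 0.201, and stood at -0.27 without both replicates 2 and 3. In that comparison 22 of the 82 genes (26.8%) were called without female wild type replicate 1, beside 15.5% of all genes.

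Fat4, the Fat cadherin that pairs with Dchs1 in planar polarity, was higher with Cre on average. It measured 26.1, 20.4 and 20.8 CPM in female Egr1cKO against 12.9, 12.3 and 13.5 CPM in its control. Female Cre control libraries had 15, 24.9 and 19.1 CPM, against 10.4, 13.4 and 13.3 CPM in wild type. In males it measured 19.8, 20.9 and 16 CPM in Egr1cKO against 8.42, 17.5 and 8.25 CPM in its control, and 21.2, 22.9 and 23.2 CPM in Cre control against 8.64, 8.71 and 7.93 CPM in wild type. Male Egr1cKO overlapped its control, through control replicate 2, and the other 3 pairs did not overlap. The average log2 fold change was 0.90 (SE 0.128, adjusted p = 5.14e-05 by edgeR), ranging over the 4 comparisons between 0.67 and 1.41. The separate call in male Cre control (SE 0.26, adjusted p = 0.0156 by edgeR) was lost without any 1 of the 6 libraries, at adjusted p between 0.0571 and 0.0838. Genes on the opposite strand overlap 8.7% of the exon length of Fat4, and reads from them cannot be told apart in unstranded libraries.

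Both atypical cadherins were higher with Cre on average. Cdh13 (T-cadherin, which lacks a cytoplasmic tail and binds adiponectin) measured 13.9, 29.5 and 46.4 CPM in female Egr1cKO against 4.5, 2.68 and 2.65 CPM in its control. Female Cre control libraries had 10.7, 8.26 and 9.57 CPM, against 3.03, 27.1 and 28.2 CPM in wild type. In males it measured 14, 22.7 and 35.9 CPM in Egr1cKO against 2.79, 15.8 and 2.93 CPM in its control, and 15.1, 17.7 and 27.5 CPM in Cre control against 8.27, 2.6 and 4.55 CPM in wild type. In all, 3 of the 4 comparisons lay above 0, and the fourth, in Cre control females, lay at -1.04 with the wild type libraries split either side of the Cre control ones. The average was 1.46 (SE 0.355, adjusted p = 0.0151 by edgeR). The call in Egr1cKO females held in 1 of 6 fits, the one without female Egr1cKO replicate 1, and was lost without any of the other 5 libraries, at adjusted p between 0.0609 and 0.143.

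Cdh26, an atypical cadherin, measured 21.3, 25.7 and 19.0 CPM in female Egr1cKO against 16.5, 14.3 and 28.6 CPM in its control. Female Cre control libraries had 25.7, 28.3 and 27.4 CPM, against 18.5, 20.6 and 26.4 CPM in wild type. In males it measured 35.3, 33.2 and 21.5 CPM in Egr1cKO against 20.9, 14.8 and 17.7 CPM in its control, and 37.9, 32.7 and 27.3 CPM in Cre control against 14, 17.6 and 20.5 CPM in wild type. Both male pairs were separated and both female pairs overlapped. Its average was 0.53 (SE 0.124, adjusted p = 0.00785 by edgeR), with the 4 comparisons between 0.15 and 0.91. Pcdhb17, the highest clustered gene, averaged 0.43 (SE 0.111, adjusted p = 0.017 by edgeR) and lay above 0 in all 4 comparisons. It measured 26.8, 19.0 and 22.0 CPM in female Egr1cKO against 20.3, 17.9 and 19.6 CPM in its control, and the largest of the 4 values was 0.70.

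The remaining 3 calls of the average depended on single libraries. Cdh19, a type II cadherin of neural-crest-derived glia, stood at 0.70 (SE 0.203, adjusted p = 0.035 by edgeR), and was called in 11 of 24 fits that left out 1 library, with an adjusted p up to 0.0717. Cdh11 (OB-cadherin, of mesenchymal cells) stood at 0.70 (SE 0.205, adjusted p = 0.0392 by edgeR), and was called in 6 of 24, with an adjusted p up to 0.0848. It was kept only without replicate 1 of female Egr1cKO or female Cre control, replicate 3 of female Egr1cKO control, female wild type or male wild type, or replicate 2 of male Egr1cKO control. Cdh19 was lost without replicate 1 of female Egr1cKO, female Cre control or male Egr1cKO control, without replicate 2 of female Cre control, female wild type, male Egr1cKO, male Cre control or male wild type, and without replicate 3 of female Egr1cKO control, female wild type, male Egr1cKO control, male Cre control or male wild type. Cdh12, a type II cadherin of brain, stood at -1.71 (SE 0.489, adjusted p = 0.0324 by edgeR), was called in 12 of 24, with an adjusted p up to 0.0664 in the fit without male wild type replicate 3, and shared its sign with 2 of the 4 comparisons. Its direction turned to 0.52 without female wild type replicates 2 and 3, where the 1 female wild type library left had 0 counts of Cdh12. Both Cdh11 and Cdh19 lost their calls in that fit. The 12 libraries whose loss ended the Cdh12 call were replicates 1 and 2 of female Egr1cKO, 2 and 3 of female Egr1cKO control, 1 and 3 of female Cre control, 3 of female wild type, 2 and 3 of male Egr1cKO, 3 of male Egr1cKO control, 1 of male Cre control and 3 of male wild type.

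**Figure D4:**
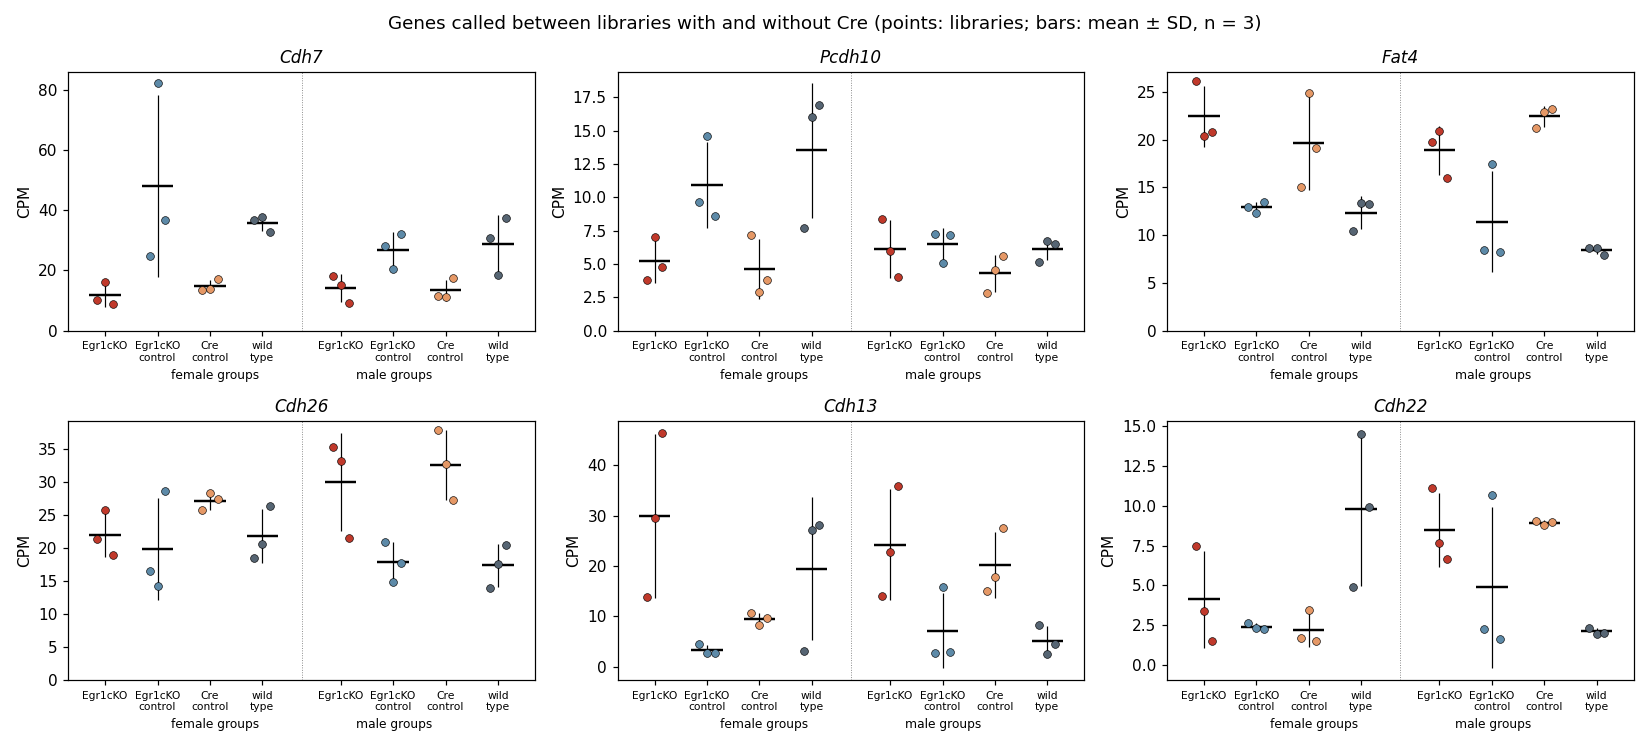
CPM (vertical axis, linear) of 6 genes in each library by group (horizontal axis); points are libraries and bars mean ± SD of 3. All Cre-carrying libraries lay below all Cre-negative ones for Cdh7 (8.83 to 18.1 against 18.4 to 82.2 CPM), and Cdh22 was low in female Cre control and high in male Cre control relative to the wild type of the same sex.

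Markers of pituitary cell types moved with the same average, in which 6.89% of all genes were called. Of 6 corticotrope and melanotrope markers 5 were higher with Cre, with Pomc at 1.44 and Pcsk2 at 1.58, and their summed level ran from 83300 to 228000 CPM in female Egr1cKO against 12000 to 39900 CPM in its control, and from 40000 to 114000 CPM in male Egr1cKO against 7580 to 31700 CPM in its control. In Cre control it ran from 52400 to 95800 CPM in females and from 31200 to 48500 CPM in males, against 37100 to 41500 CPM in female wild type and 9140 to 49100 CPM in male wild type. All 4 somatotrope and lactotrope markers were lower, with Prl at -2.17. Of 5 posterior lobe markers 4 were higher, of 6 stem and folliculostellate markers 2 were higher, both thyrotrope markers were higher, and of 5 fibroblast markers 1 was higher and 1 lower. No marker of these lists was at 0 in any library. Their part in the cadherin results was not tested. In bulk tissue, fewer cells of a type and less RNA per cell cannot be told apart.

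No gene of the family passed edgeR's test for a difference between the Egr1cKO and Cre effects. For the Egr1cKO effect minus the Cre effect, edgeR called 0 of 82 genes in males, beside 0.0% of all genes, and DESeq2 called 0. In males 0 of the 82 had an unadjusted p under 0.05 by edgeR, beside 1.06% of all genes, and the median of the 82 was -0.18 against 0.01. In females edgeR called 0, beside 0.00456% of all genes, and DESeq2 called 1. At an unadjusted p under 0.05 there were 7 genes in females, beside 9.81% of all genes. In females edgeR called 3 without female wild type replicates 2 and 3 (3.66%, beside 0.865% of all genes), and with the mitochondrial covariate 8 (9.76%, beside 8.42%). The smallest adjusted p in females was 0.257 by edgeR, for Cdh13 at 4.22, followed by Cdh22 at 2.91 and Pcdhgc4 at 2.22. The 82 genes had a median of 0.39 in females, which became -0.50 without female wild type replicates 2 and 3.

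By edgeR the Cre effect differed between the sexes for 1 gene, Cdh22, cloned from rat as a cadherin of pituitary and brain. Cdh22 measured 1.73, 3.47 and 1.49 CPM in female Cre control against 4.93, 14.5 and 9.91 CPM in female wild type. In males it measured 9.05, 8.77 and 9.0 CPM in Cre control against 2.34, 1.97 and 2.02 CPM in wild type. Every female Cre control library was below every female wild type one, and every male Cre control library was above every male wild type one. The interaction was -4.21 on the log2 scale (SE 0.823, adjusted p = 0.0299 by edgeR), 1.22% of the 82 genes beside 0.128% of all genes called. The mitochondrial covariate gave 3 called genes (3.66%, beside 0.757%), DESeq2 13 (15.9%, beside 5.7%) and edgeR without the filter on low counts 20 (24.4%, beside 4.06%). The Cdh22 call held in 3 of 12 fits that left out 1 library, those without female wild type replicate 1, male Cre control replicate 1 or male wild type replicate 3, and the other 9 gave adjusted p between 0.0553 and 0.126. Its value over the 12 fits lay between -4.69 and -3.81, and it stood at -3.22 (adjusted p = 0.109 by edgeR) without female wild type replicates 2 and 3. In the FF groups Cdh22 measured 7.48, 3.41 and 1.54 CPM in female Egr1cKO against 2.67, 2.3 and 2.26 CPM in its control, and 11.1, 7.63 and 6.67 CPM in male Egr1cKO against 2.29, 10.7 and 1.62 CPM in its control. Both of these pairs overlapped. N-cadherin, at -1.32 (adjusted p = 0.056 by edgeR), and Fat3, at -1.44 (0.0742), came nearest to it without passing.

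Over the family, 72 of 82 genes (87.8%) had a more negative Cre effect in females than in males, against 52.2% of all genes, and 36 had an unadjusted p under 0.05, beside 18% of all genes. The median difference was -1.16, and -0.31 without female wild type replicates 2 and 3. Without female wild type replicate 1 edgeR called 30 of the 82 genes here (36.6%, beside 18.7% of all genes), and without replicates 2 and 3 it called 0 (beside 0.306%), so both the count and the size of the difference moved with the split in female wild type. For the Egr1cKO effect, 63 of 82 genes (76.8%) were more negative in females, against 54.1% of all genes, but edgeR called 0, beside 0.0228% of all genes, and DESeq2 called 1. At an unadjusted p under 0.05 there were 12 genes, beside 8.44% of all genes. The smallest adjusted p there was 0.267 by edgeR, for Pcdhb9 at -1.56.

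No gene of the family passed edgeR's test between FF groups without Cre and wild type. For Egr1cKO control over wild type, edgeR called 0 of 82 genes in males, with 1 at an unadjusted p under 0.05 and 0 by DESeq2, and 0 in females, with 16 (19.5%) at an unadjusted p under 0.05 and 5 by DESeq2. The background was 0.0% of all genes called by edgeR in each sex and 4.65% by DESeq2 in females. At an unadjusted p under 0.05 by edgeR it was 0.894% in males and 14.8% in females. The smallest adjusted p in females was 0.103 by edgeR, for Pcdhgb2 at -1.71, followed by Pcdhgc4 at -1.77 and Cdh22 at -2.02, and the median of the 82 there was -0.43, or 0.26 without female wild type replicates 2 and 3. Without female wild type replicate 1, edgeR called 16 genes in that comparison (19.5%, near the 18.3% of all genes), and without replicates 2 and 3 it called 2 (2.44%, beside 0.76%).

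Between the sexes, averaged over the 4 genotypes, 14 of 82 genes were called, 7 higher and 7 lower in females. That is 17.1%, beside 21.7% of all genes called (9.99% as higher and 11.7% as lower), and the median of the 82 was -0.18 against -0.06. The count depended on the fit: it was 37 without female wild type replicates 2 and 3 (45.1%, beside 32.3% of all genes), 21 without the filter on low counts (25.6%, beside 15.3%), 3 with the mitochondrial share as covariate (3.66%, beside 2.72%) and 5 with the genes detected (6.1%, beside 3.5%). Whether the family's share lay above or below the background changed with it. All 14 held in all 24 fits that left out 1 library, except Cdh20, which was lost without female wild type replicate 2 at an adjusted p of 0.0578 by edgeR. All but Cdh20, 13 of the 14, also kept their call and direction without female wild type replicates 2 and 3 together.

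Pcdh11x, a delta protocadherin on the X chromosome, had the lowest adjusted p of the 82 genes. It measured 3.59, 9.06 and 10.9 CPM in female Egr1cKO against 4.4, 5.47 and 4.46 CPM in male Egr1cKO, and 12.2, 13.4 and 9.06 CPM in female Egr1cKO control against 2.73, 4.46 and 2.93 CPM in male Egr1cKO control. Female Cre control had 7.58, 9.22 and 15.6 CPM against 3.2, 3.45 and 5.66 CPM in male Cre control, and female wild type had 11, 18.6 and 16.1 CPM against 1.54, 3.32 and 3.97 CPM in male wild type. The sexes were separated in every genotype except Egr1cKO. The average log2 fold change was 1.56 (SE 0.202, adjusted p = 6.55e-06 by edgeR), within a range of 0.72 to 2.36 over the genotypes, and it was 1.43 without female wild type replicates 2 and 3.

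Cdh19 was higher in females too, at 26.7, 19.6 and 18.6 CPM in female Egr1cKO against 9.03, 11 and 8.53 CPM in male Egr1cKO, and 16.5, 21.4 and 8.76 CPM in female Egr1cKO control against 2.18, 5.67 and 2.52 CPM in male Egr1cKO control. Female Cre control had 12.9, 12.1 and 9.61 CPM against 3.05, 9.23 and 8.43 CPM in male Cre control, and female wild type had 12.7, 7.72 and 7.42 CPM against 6.91, 4.49 and 2.88 CPM in male wild type. All 4 genotypes were separated by sex, and the average was 1.26 (SE 0.205, adjusted p = 0.000126 by edgeR). Fat3, a Fat cadherin that shapes neuronal dendrites, averaged 0.60 (adjusted p = 0.00241 by edgeR), with 31.2, 34.7 and 52.2 CPM in female wild type against 13.7, 14.6 and 18.2 CPM in male wild type. Its Egr1cKO libraries overlapped, at 47.0, 39.2 and 29.6 CPM in females and 33.7, 35.3 and 20.6 CPM in males. Cdh24, a type II cadherin, averaged 0.80 (adjusted p = 0.0019 by edgeR), and Pcdhga12 1.22 and Pcdha3 0.89, both subject to the shared exons above. The averages without female wild type replicates 2 and 3 were 1.36 for Cdh19, 0.51 for Fat3, 0.94 for Cdh24, 1.55 for Pcdhga12 and 1.03 for Pcdha3. With the mitochondrial share as covariate Pcdhga12 turned to -0.32, and Cdh19 (0.89), Cdh24 (0.42) and Pcdha3 (0.43) were not called.

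The genes lower in females on average included the main adhesion molecules, though none of the calls was made in wild type alone or kept with the mitochondrial share as covariate. Fat1 averaged -0.49 (adjusted p = 0.00826 by edgeR) and measured 86.7, 75.3 and 67.4 CPM in female Egr1cKO against 186, 147 and 107 CPM in male Egr1cKO. N-cadherin averaged -0.38 (adjusted p = 0.0135 by edgeR) and measured 74.9, 56.2 and 66.8 CPM in female Egr1cKO against 120, 111 and 80.9 CPM in male Egr1cKO. Both were separated by sex in Egr1cKO but not in wild type, where Fat1 had 78.5, 157 and 215 CPM in females against 123, 109 and 147 CPM in males. Cdh1 (E-cadherin, of epithelial and pituitary stem cells) averaged -0.76 (adjusted p = 0.0159 by edgeR), with 9.82, 8.16 and 8.51 CPM in female Egr1cKO against 24.3, 19.9 and 14.2 CPM in male Egr1cKO. Of the type II cadherins of brain, Cdh8 averaged -1.43 (adjusted p = 0.000241 by edgeR), Cdh12 -2.45 (adjusted p = 0.00129 by edgeR) and Cdh18 -0.77. The beta gene Pcdhb1 averaged -1.83. In wild type alone none of these was called, and the differences were 0.25 for Fat1, 0.47 for N-cadherin, 0.39 for Cdh1, 0.35 for Cdh18, 1.08 for Pcdhb1, 0.04 for Cdh8 and -0.02 for Cdh12. With the mitochondrial covariate all 7 lost their call: Fat1 turned to 0.02 and Cdh1 to 0.13, and N-cadherin stood at -0.05, Cdh18 at -0.08, Cdh8 at -1.09, Cdh12 at -0.93 and Pcdhb1 at 0. Without female wild type replicates 2 and 3 that group is replicate 1 alone. The averages were then further from 0, at -0.74 for Fat1, -0.55 for N-cadherin, -1.33 for Cdh1, -1.68 for Cdh8 and -1.17 for Cdh18. They were -4.68 for Cdh12 and -4.22 for Pcdhb1, both of which had 0 counts in replicate 1. Those values therefore depend on how a 0 in 1 library is handled.

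Cdh8 and Cdh12 were low in females of both Cre-carrying genotypes, and both were also lower in females than in males in Egr1cKO control, which lacks Cre. Cdh8 measured 1.71, 0.727 and 1.08 CPM in female Egr1cKO against 8.29, 9.51 and 3.12 CPM in male Egr1cKO, and 1.13, 1.28 and 2.24 CPM in female Cre control against 7.1, 5.63 and 9.47 CPM in male Cre control. In Egr1cKO control Cdh8 lay between 1.15 and 1.87 CPM in females and between 2.34 and 3.06 CPM in males, without overlap. In wild type it overlapped, at 1.54, 3.15 and 4.28 CPM in females and 2.84, 2.6 and 3.31 CPM in males. Cdh12 had 0, 0 and 0.234 CPM in female Egr1cKO, 5 counts in all, against 4.9, 3.5 and 3.29 CPM in male Egr1cKO, and 0.2, 0.502 and 0.439 CPM in female Cre control against 1.25, 4.52 and 3.58 CPM in male Cre control. In Egr1cKO control Cdh12 lay between 0.573 and 2.12 CPM in females and between 3.07 and 4.1 CPM in males, without overlap. Its fitted fold changes depend on how such low counts are handled. Cdh20, a type II cadherin, was the reverse, at 2.84, 4.75 and 2.01 CPM in female Egr1cKO against 0.321, 0.224 and 0 CPM in male Egr1cKO. It averaged 2.12 (adjusted p = 0.0165 by edgeR), or 0.32 and not called without female wild type replicates 2 and 3. In that fit the 1 female wild type library left had 0 counts of Cdh20.

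**Figure D5:**
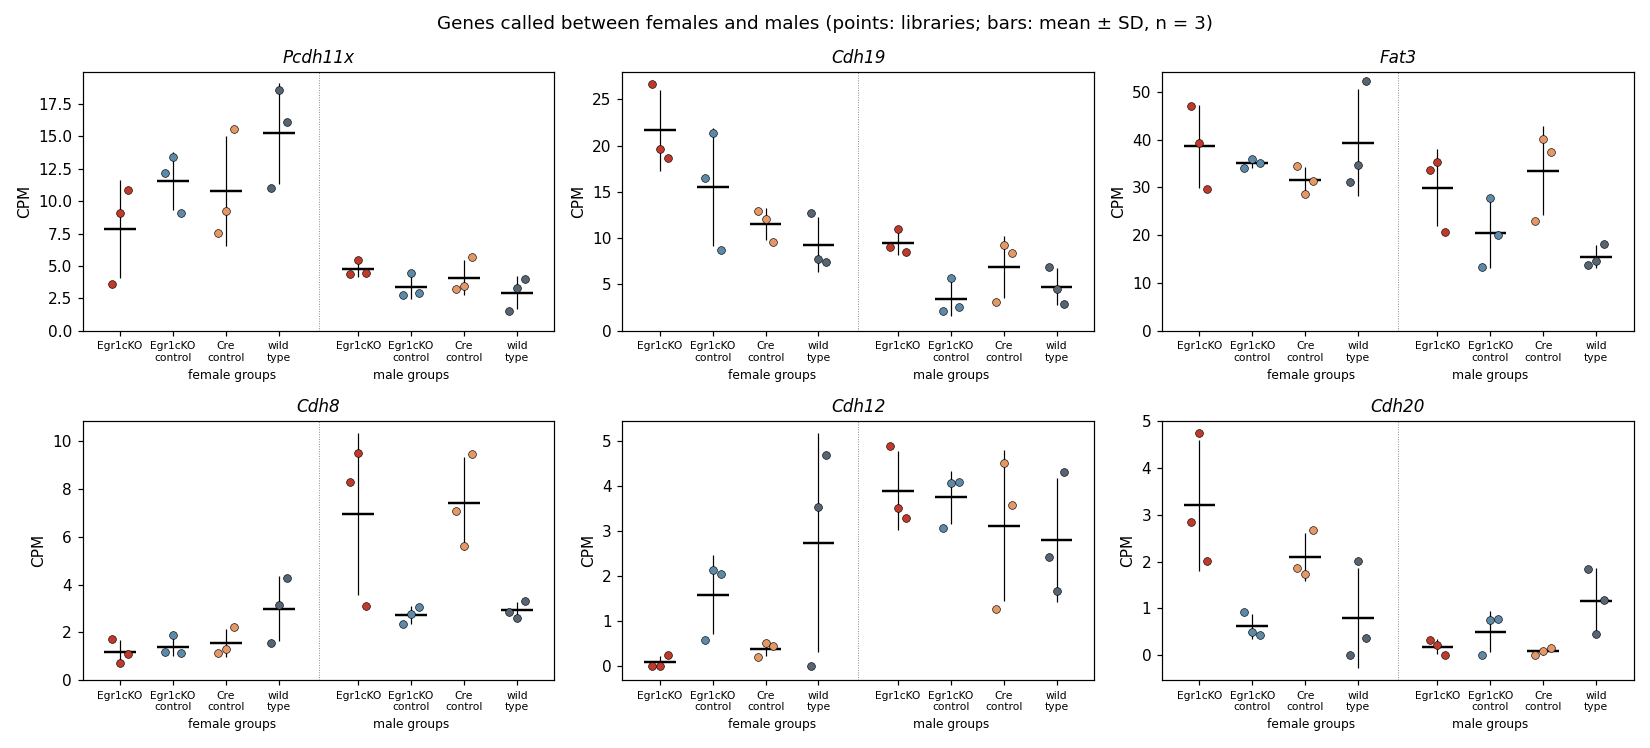
CPM (vertical axis, linear) of 6 genes in each library by group (horizontal axis, female groups left of male groups); points are libraries and bars mean ± SD of 3. Female libraries of Pcdh11x and Cdh19 lay above the males in most genotypes, and Cdh8 was high in male Egr1cKO and male Cre control.

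By genotype, edgeR over all 8 groups made few calls between the sexes except in Egr1cKO, and other fits made more in Cre control. In wild type 2 genes were called, both higher in females (2.44%, beside 0.283% of all genes): Pcdh11x at 2.36 (SE 0.414, adjusted p = 0.00702 by edgeR) and Fat3 at 1.34 (SE 0.268, adjusted p = 0.0184 by edgeR). Cdh22 at 2.21 (adjusted p = 0.12 by edgeR) came next. Pcdh11x lost its call without male wild type replicate 1, at an adjusted p of 0.0681 by edgeR, kept it without female wild type replicates 2 and 3 at 1.89 (adjusted p = 0.0228 by edgeR), and Fat3 held in 3 of 6 fits. In all, 72 of 82 genes (87.8%) were higher in female wild type, against 52.4% of all genes. The median of the 82 was 0.61, against 0.02 for all genes, and became -0.22 without female wild type replicates 2 and 3. Fat3 was lost without female wild type replicate 3 or male wild type replicates 1 or 2, at adjusted p between 0.124 and 0.187, and stood at 1.01 (adjusted p = 0.0538 by edgeR) without female wild type replicates 2 and 3. In wild type 11 genes were called without female replicate 1 (13.4%, beside 4.41% of all genes) and 10 without female replicates 2 and 3 (12.2%, beside 6.98%). In Cre control 3 genes were called (3.66%, beside 3.61%), Pcdh11x at 1.40, Cdh8 at -2.24 and N-cadherin at -0.85, and in Egr1cKO control 2 (2.44%, beside 0.451%), Cdh19 at 2.15 and Pcdh11x at 1.76. Cre control had 17 calls in the fit of only the 2 groups compared (20.7%, beside 16.7% of all genes). It had 22 without the filter on low counts (26.8%, beside 6.89%) and 10 by DESeq2 (12.2%, beside 9.57%). The same fits gave 20, 24 and 22 in Egr1cKO, where edgeR over all 8 groups called 13.1% of all genes. The shares of all genes in those Egr1cKO fits are not given here, so the counts describe the list only. Fits that left out 1 library ended most of the calls made over all 8 groups. In Cre control, Pcdh11x was lost without any 1 of the 6 libraries (adjusted p 0.0763 to 0.2), N-cadherin without any but male replicate 1 (0.0626 to 0.153), and Cdh8 without female replicates 1 or 2 or male replicate 3 (0.0676 to 0.0885). In Egr1cKO control, Cdh19 held only without female replicate 3 or male replicate 2, and Pcdh11x only without female replicate 3.

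In Egr1cKO 14 genes were called, 3 higher and 11 lower in females, which is 17.1% of the 82 beside 13.1% of all genes (5.49% as higher and 7.57% as lower). The genes higher in females were Cdh20 at 4.10, Pcdhga12 at 2.01 and Cdh24 at 1.54. The lower ones included Cdh12 at -5.53, Cdh8 at -2.56, Pcdhb11 at -2.27, Cdh18 at -2.04, Pcdhgb5 at -1.96, Pcdh20 at -1.62, Pcdh17 at -1.51, Pcdhb9 at -1.45, Pcdhb16 at -1.27, Fat1 at -0.94 and N-cadherin at -0.66. Pcdh17, a delta protocadherin, measured 18.4, 16.6 and 9.96 CPM in female Egr1cKO against 49.8, 51.8 and 25.9 CPM in male Egr1cKO. Pcdhb9, a beta gene that shares no exon, measured 3.59, 6.77 and 6.03 CPM in female Egr1cKO against 17.0, 17.7 and 9.92 CPM in male Egr1cKO. Neither overlapped.

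Cdh12, Cdh8, Cdh18 and Pcdhb9 held in all 6 fits that left out 1 Egr1cKO library. Only these 4 of the 14 were called without male replicate 1 or without male replicate 2, where the others besides N-cadherin had adjusted p of 0.0605 to 0.167 and of 0.0507 to 0.155. Without female replicate 2 all of those but Cdh24 were lost (0.0598 to 0.129), and Cdh20 and Pcdhga12 were lost without any library. Without female replicate 1, Pcdhb11, Pcdhgb5 and Pcdh20 were lost, and without female replicate 3, Pcdh20, Pcdh17, Pcdhb16 and Fat1. The mitochondrial share was 8.73% to 10.4% in female Egr1cKO against 2.76% to 3.79% in male Egr1cKO, and the genes detected at equal depth were 18441 to 20445 against 24821 to 25655. With the mitochondrial share as a covariate 1 of the 14 calls was kept, Cdh20, and with the genes detected 0 were kept, and Pcdhga12 turned to -0.50 and -0.41 in those fits. Neither measure overlaps between the sexes in this genotype, so they and sex cannot be told apart here. For the average over genotypes, the mitochondrial covariate kept Cdh20, Pcdh11x and Fat3, and the genes detected kept Cdh20, Cdh19, Pcdh11x, Cdh8 and Fat3.

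Among cell types, the 3 gonadotrope markers summed to 88.7 to 217 CPM over the female libraries against 613 to 1940 CPM over the male ones. Posterior lobe markers were higher in females for 5 of 5, beside 21.7% of all genes called in either direction. Their summed level was 150 to 418 CPM over the female libraries against 51.4 to 183 CPM over the male ones. Endothelial markers were lower in females for 3 of 6, with 119 to 190 CPM in females against 150 to 262 CPM in males. With the mitochondrial covariate 2 of 5 posterior lobe markers and 0 of 6 endothelial markers were called. The part of these cell types in the cadherin differences was not tested.

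The proteins that work with cadherins inside and beside the cell were taken as 5 lists. With Cre on average, 1 of 18 catenins and junction linkers rose, Nectin3 at 0.41, and 2 fell, Plekha7 (which ties cadherin junctions to microtubules) at -0.81 with an adjusted p of 6.18e-05 by edgeR and Ctnnd2 (delta-catenin) at -0.50. Of 10 Fat and Dachsous partners 3 rose, the Hippo pathway effectors Wwtr1 at 0.78 and Yap1 at 0.42 and their regulator Wwc1 at 0.33, and 1 fell, the planar polarity gene Vangl1 at -0.53. Of 10 epithelial-mesenchymal transition factors 1 rose, Snai2 at 0.89, of 14 other cadherin superfamily genes 1 fell, Cdhr3 at -1.07, and of 12 regulators of clustered protocadherins none passed. The background was 6.89% of all genes, and the medians of these lists lay between 0.01 and 0.35 against -0.03 for all genes.

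Between the sexes, 11 of 18 catenins and linkers were lower in females and 1 was higher, with a median of -0.36 against -0.06 for all genes, of which 21.7% were called. The lower ones included Ctnna1 (alpha-catenin) at -0.39, Jup (plakoglobin) at -0.50, Nectin2 at -0.63 and Nectin3 at -0.62, and the higher one was Afdn at 0.30. Of 14 other superfamily genes 6 were lower, among them Ret at -1.63, Clstn2 at -0.76 and Clstn1 at -0.43, and 1 was higher, Celsr3 at 0.42. Of 12 clustered protocadherin regulators 3 were lower, the cohesin genes and partners Rad21 at -0.30 and Wapl at -0.26 and the X-inactivation repressor Smchd1 at -0.32, and 1 was higher, the cohesin loader Mau2 at 0.39. Of 10 epithelial-mesenchymal transition factors 2 were higher, Snai2 at 0.96 and Zeb1 at 0.47, and of 10 Fat and Dachsous partners 2 were lower, the planar polarity genes Vangl1 at -0.99 and Prickle2 at -0.79. With the mitochondrial share as covariate 1 catenin or linker, 2 other superfamily genes and 1 Fat and Dachsous partner were lower, 1 other superfamily gene was higher, and no regulator or transition factor was called, beside 2.72% of all genes.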

How the data were processed

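Non-stranded RNA-seq was run on 1.5 ug of total pituitary RNA per sample, extracted with RNeasy columns, per the labels' protocols. The submitters' processing notes name Trim Galore 3.8.2, FastQC, STAR 2.7.9 and the GRCm38 build. The sources used here name neither the counting tool nor its annotation. The deposited table holds raw read counts per gene for all 24 samples, and per the labels it has 3 columns in each of 8 groups. The gene type, exon lengths and shared exons were taken from GENCODE M21, which 35077 of the 35191 gene identifiers matched.

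CPM is a gene's count per 1000000 counts of its library. Counts were fitted with edgeR 4.0.16 (robust quasi-likelihood, TMM normalisation, filterByExpr, prior count 0.125) in R 4.3.3 with 1 mean per group over all 8 groups, and p-values were adjusted by the Benjamini-Hochberg method over the 21927 genes kept, with a threshold of 0.05. Contrasts covered the Egr1cKO and Cre effects within each sex, their difference, their difference between sexes, the sex difference within each genotype, Egr1cKO control against wild type, and the averages of the 4 Cre comparisons and of the 4 sex comparisons. The code was tested on simulated counts. Replicates differed beyond counting noise in all 24 pairs within groups (lowest chi-square per degree of freedom 16.3, over genes with summed counts of at least 20), so none was treated as a duplicate.

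Genes were named by a rule: those called in a comparison (the 10 with the largest changes in a direction where more were called), those with the smallest p where fewer than 3 were called, the 10 highest by mean CPM, the highest of each class, and up to 6 called genes of each list of partners and cell markers. Egr1 served as a sample check. The members and lists were chosen with earlier results of these data known. Alternatives were another normalisation (RLE), no filter, DESeq2 1.42.0, only the compared groups, the mitochondrial share as covariate, and leaving out each library. The genes detected as covariate and the fit without female wild type replicates 2 and 3 were chosen after seeing the data. A second gene identifier named Pcdha11 had 22 counts in all and was not reported, and 1 gene named by the rule is not protein coding. Precision is limited by the 3 libraries per group, and by counting error for genes with a few counts.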

Additional observations from a re-analysis of the deposited data

Results flagged for a closer look

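The Cre effect on Cdh22 differed between the sexes, with an interaction of -4.21 on the log2 scale in edgeR's quasi-likelihood test. All 3 female Cre control libraries were below all 3 female wild type libraries, and all 3 male Cre control libraries were above all 3 male wild type libraries. Female wild type replicates 2 and 3, with 14.5 and 9.91 CPM, stood above replicate 1 at 4.93 CPM, and without them the interaction was -3.22 and no longer past the threshold. The same contrast between the FF groups was 0.0 (SE 0.678) and not called, with an Egr1cKO effect of 0.78 in each sex.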

How the results depend on the processing

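In the average Cre effect the direction and call of Cdh13, Fat4, Cdh26, Pcdhb17, Cdh7 and Pcdh10 did not change under any alternative run. Their calls within one sex did: leaving out 1 library ended that of Fat4 for Cre in males in 6 of 6 fits, of Cdh13 for Egr1cKO in females in 5 of 6 and of Pcdh10 for Cre in females in 4 of 6. Over all alternatives other than leaving out single libraries, 361 values kept direction and side of the threshold, 58 lost it, 37 gained it and 9 reversed; over the fits that left out 1 library these were 781, 139, 14 and 2. The cause of each change was not tested.

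The counts in this paragraph stand without the share of all genes called in the same fit, so they describe the list only. Without the filter on low counts the members called were 3 for the Egr1cKO effect in males and 4 in females, 10 for the Cre effect in males and 20 in females, 3 for Egr1cKO beyond Cre in females, 20 for the interaction of sex and Cre, 8, 22, 5 and 24 for sex in wild type, Cre control, Egr1cKO control and Egr1cKO, and 9 for Egr1cKO control over wild type in females. With DESeq2 they were 4 for the Egr1cKO effect in females, 5 and 10 for the Cre effect in males and in females, 1 for Egr1cKO beyond Cre in females, 1 and 13 for the interactions of sex with Egr1cKO and with Cre, 6, 10 and 22 for sex in wild type, Cre control and Egr1cKO, and 5 for Egr1cKO control over wild type in females. With the mitochondrial share as covariate they were 9 for the Egr1cKO effect in females, 3 for the Cre effect in males, 8 for Egr1cKO beyond Cre in females, 3 for the interaction of sex and Cre, 16 for the average Cre effect, 4, 1 and 1 for sex in wild type, Cre control and Egr1cKO, 3 for the average sex difference and 4 for Egr1cKO control over wild type in females. With the genes detected as covariate they were 3 and 0 for the Cre effect in males and in females, 0 for sex in Cre control and in Egr1cKO, 5 for the average sex difference and 1 for Egr1cKO control over wild type in females. With only the compared groups they were 2 and 0 for the Cre effect in males and in females, and 0, 17 and 4 for sex in wild type, Cre control and Egr1cKO control. Without female wild type replicates 2 and 3 they were 6 for the Cre effect in females, 3 for Egr1cKO beyond Cre in females, 0 for the interaction of sex and Cre, 19 for the average Cre effect, 10 for sex in wild type, 37 for the average sex difference and 2 for Egr1cKO control over wild type in females.

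Leaving out 1 library gave 0 to 0 called for the Egr1cKO effect in males, 1 to 4 in females, 0 to 0 for the Cre effect in males, 0 to 22 in females, 0 to 0 and 0 to 5 for Egr1cKO beyond Cre in males and in females, 0 to 0 and 0 to 30 for the interactions of sex with Egr1cKO and with Cre, 6 to 12 for the average Cre effect, 0 to 11, 0 to 3, 0 to 2 and 4 to 12 for sex in wild type, Cre control, Egr1cKO control and Egr1cKO, 14 to 18 for the average sex difference, and 0 to 0 and 0 to 16 for Egr1cKO control over wild type in males and in females. Over all genes tested, the counts ran from 142 to 581 for the Egr1cKO effect and 29 to 3603 for the Cre effect in females. They ran from 1 to 4339 for the interaction of sex and Cre, and from 0 to 4248 for Egr1cKO control over wild type in females. In males they ran from 2 to 28 for the Egr1cKO effect and from 4 to 24 for the Cre effect. For Egr1cKO beyond Cre they were 0 to 0 in males and 1 to 1282 in females. For the interaction of sex and Egr1cKO they were 0 to 19, and for Egr1cKO control over wild type in males 0 to 0. For the averages they were 1096 to 1885 for Cre and 3729 to 5495 for sex. For sex in wild type, Cre control, Egr1cKO control and Egr1cKO they were 25 to 1024, 154 to 974, 29 to 232 and 548 to 2794.

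The reversed values were Cdh12 at 0.52 for the average Cre effect without female wild type replicates 2 and 3, and several sex differences under a covariate. In the first of these fits the 1 female wild type library left had 0 counts of Cdh12. With the mitochondrial share, Pcdhga12 was -0.50, Pcdhb16 0.14 and Fat1 0.06 in Egr1cKO, and Pcdhga12 was -0.32, Cdh1 0.13 and Fat1 0.02 on average. With the genes detected, Pcdhga12 was -0.41 in Egr1cKO and -0.04 on average. For Egr1cKO control over wild type in males, leaving out 1 library gave -0.12 to 1.64 for Cdh22 and -0.02 to 0.63 for Fat4, both negative without male Egr1cKO control replicate 2. No paired analysis was possible because the replicate numbers follow accession order and pair no samples. With 3 libraries a group and alpha and gamma genes that share exons, counts of genes under a few CPM limit what can be told.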
